A study of Mus musculus with 6 samples.

Results

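Genes that set the shape and turnover of mitochondria were followed in preparations of alveolar epithelial type 2 cells (AT2 cells), the surfactant-making cells of the lung. There are 10, Mfn1, Mfn2, Opa1, Oma1, Yme1l1, Dnm1l, Fis1, Mff, Pink1 and Bnip3. All were chosen by name, as the genes with these symbols among 13931 listed genes, and they have 26 of the 24647 listed transcripts. The cells came from the lungs of C57BL/6 mice. There are 3 RNA sequencing libraries from mice given bleomycin repeatedly at 1 U/kg and 3 from mice given phosphate-buffered saline (PBS) repeatedly. How many mice went into a library is not stated here. Bleomycin breaks DNA and is given to rodents to model lung injury. The labels name no genetic change in either group. The labels used here do not say how the cells were isolated, nor the number, spacing or route of the exposures. The deposited unit is FPKM, a fragment number divided by the length of the transcript and by the size of the library. The files used here hold no read counts, so the depth behind each value is unknown.

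Mitochondria fuse and divide throughout the life of a cell. Mitofusins 1 and 2, the products of Mfn1 and Mfn2, are GTPases that tether and fuse the outer membranes of neighbouring mitochondria, and Opa1 fuses the inner membranes and shapes the cristae. Opa1 is cut by the inner membrane proteases Oma1 and Yme1l1, and the balance between its long and short forms sets how readily inner membranes fuse. Division is carried out by the dynamin-like GTPase encoded by Dnm1l (DRP1), which is recruited to the outer membrane by adaptors such as Mff, and Fis1 is a tail-anchored outer membrane protein of the same process. Damaged mitochondria are removed by mitophagy, for which the kinase Pink1 marks them and the receptor Bnip3 links them to the autophagy machinery. AT2 cells are rich in mitochondria and have a high demand for lipid synthesis.

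The levels of cell type markers differed between the groups. Of 10 AT2 markers 9 were lower with bleomycin, and their summed level was 3190 to 7379 FPKM in the bleomycin libraries and 17337 to 25231 FPKM in the PBS libraries. Of 10 leukocyte markers 9 were higher, and these 9 summed to 692 to 1025 FPKM with bleomycin and 22.8 to 37.1 FPKM with PBS. Among these 9, Lck and Cd3e stayed at or below 0.335 and 0.688 FPKM with PBS. They met the filter of 1 FPKM in at least 3 libraries only through the bleomycin group. The marker that did not pass was Lyz2, a lysozyme gene that AT2 cells express too, at 3508, 618 and 463 FPKM with bleomycin and 1386, 1169 and 1026 FPKM with PBS (limma adjusted p = 0.848), and with it all 10 summed to 1277 to 4533 FPKM with bleomycin and 1057 to 1409 FPKM with PBS. All 8 endothelial markers were higher, with sums of 291 to 545 FPKM with bleomycin and 28.2 to 30.9 FPKM with PBS. The endothelial marker Cldn5 was listed at 0 in all 3 PBS libraries, so it too met the filter only through the bleomycin group. Fibroblast and smooth muscle markers summed to 470 to 1136 FPKM with bleomycin and 1849 to 2560 FPKM with PBS, with 4 of 8 lower. Erythroid markers summed to 637 to 1185 FPKM with bleomycin and 19.3 to 431 FPKM with PBS, with 2 of 5 higher. Of 8 markers of the flat AT1 cells 1 was lower, and of 5 ciliated cell markers 2 were higher. In such bulk samples fewer cells of a type and less RNA per cell cannot be told apart. The part of the cell mixture in each result on the 10 genes was not tested.

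Bnip3 was lower with bleomycin and was the 1 gene of the 10 that passed the test (limma on log2(FPKM + 1), Benjamini-Hochberg adjusted p under 0.05 over all tested genes). None of the 10 passed as higher and 9 did not pass, and at an unadjusted p under 0.05 in limma, the one tool run, there were 2 (Bnip3 and Oma1, both lower). Of all 12326 tested genes 22.5% passed, 15.2% higher and 7.34% lower, so 1 lower gene in 10 is near the share among all genes. All 10 passed the filter on low values, with 5.71 FPKM as the lowest and 107 FPKM as the highest value of any of them in any library. The groups did not overlap for 4 of the 10, lower for Oma1, Pink1 and Bnip3 and higher for Dnm1l, against 43.6% of all tested genes in either direction and 16.4% lower. The median log2 difference of the 10 genes, bleomycin minus PBS, was -0.06, beside 0.09 over all tested genes. Scaling all libraries to one median moved the median of all tested genes to -0.08. Relative to the unscaled median of all tested genes, the difference was -0.12 for Mfn1, 0.04 for Mfn2, -0.82 for Oma1, -0.45 for Pink1 and -0.89 for Bnip3.

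**Figure D1:**
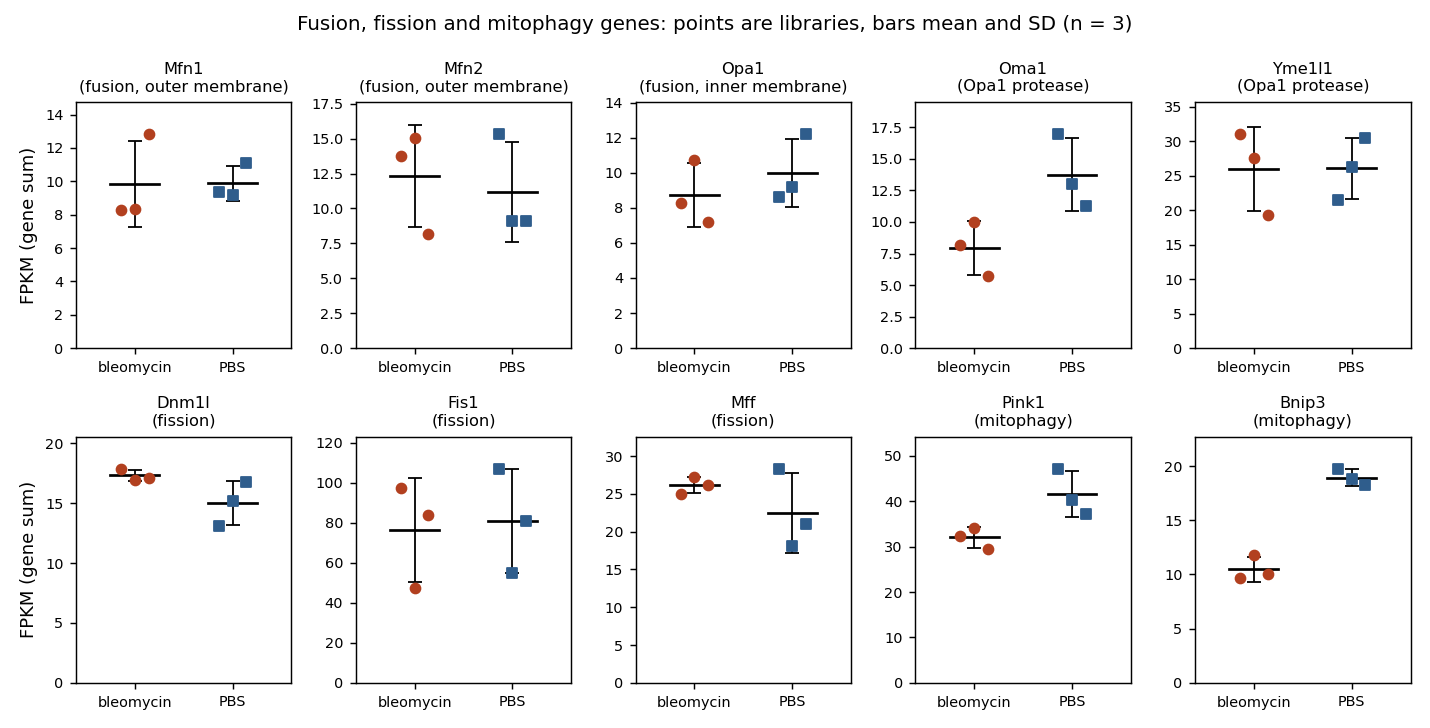
Level of each of the 10 genes in FPKM (summed over its transcripts, linear axis from 0), with bleomycin libraries as circles on the left, PBS libraries as squares on the right, and bars for mean and SD (n = 3 each). Bnip3 lay between 9.66 and 11.8 FPKM with bleomycin and between 18.3 and 19.8 FPKM with PBS, while the values of Mfn1, Mfn2, Opa1, Yme1l1, Fis1 and Mff overlapped between the groups.

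Neither mitofusin passed the test. Mfn1 (ENSMUSG00000027668.13, mm10 chr3:32529465-32579239, plus strand) measured 8.31, 8.36 and 12.8 FPKM in bleomycin replicates 1, 2 and 3, and 9.36, 9.20 and 11.1 FPKM in PBS replicates 1, 2 and 3. The third bleomycin library was the highest of all 6 and the other 2 were the lowest, so the bleomycin values enclosed those of PBS. The means were 9.84 ± 2.60 FPKM with bleomycin and 9.88 ± 1.04 FPKM with PBS (SD, n = 3 each). The log2 difference was -0.03, with a 95% interval of -0.53 to 0.47 and a limma adjusted p of 0.941.

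The high Mfn1 value of bleomycin replicate 3 came from transcripts that were low elsewhere. The full-length transcript Mfn1-001 (4562 spliced bases) measured 7.98, 8.21 and 8.87 FPKM with bleomycin and 9.15, 9.06 and 10.9 FPKM with PBS. Here every bleomycin library was below every PBS library, as for 37.7% of all tested transcripts in either direction, and the log2 difference of -0.19 did not pass (limma adjusted p = 0.507). Mfn1-007, which has the same coding length in 2789 spliced bases, and Mfn1-003, whose start is incomplete in the annotation, were listed at 2.07 and 1.90 FPKM in bleomycin replicate 3 and at no more than 0.221 FPKM in the other 5 libraries. Mfn1-001 made up 96.1%, 98.2% and 69.0% of the gene's FPKM in bleomycin replicates 1, 2 and 3, and 97.8%, 98.5% and 98.0% in PBS replicates 1, 2 and 3. Transcripts of one gene share reads, so the split between them is an estimate of the authors' assembler.

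Mfn2 (ENSMUSG00000029020.13, chr4:147873599-147904687, minus strand), with 1 listed transcript, measured 13.8, 15.1 and 8.20 FPKM with bleomycin and 15.3, 9.08 and 9.09 FPKM with PBS. Each group held both high and low libraries, and the groups overlapped. The means were 12.3 ± 3.65 FPKM with bleomycin and 11.2 ± 3.61 FPKM with PBS, a log2 difference of 0.13 with a 95% interval of -0.58 to 0.84 (limma adjusted p = 0.786). On the linear scale of FPKM + 1 this interval runs from a ratio of 0.67 to one of 1.79, so 3 libraries a group did not separate equal levels from a ratio anywhere in that range.

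The mitofusins differed in opposite ways within the bleomycin group, since replicate 3 had the highest Mfn1 value and the lowest Mfn2 value of the 6 libraries. Their sum varied less than either gene there, at 22.1, 23.4 and 21.0 FPKM with bleomycin and 24.7, 18.3 and 20.2 FPKM with PBS. The ratio of Mfn1 to Mfn2 within a library was 0.603, 0.555 and 1.57 with bleomycin and 0.611, 1.01 and 1.22 with PBS. The log2 ratio differed by -0.17 between the groups, with p = 0.8 in a two-sided exact permutation test whose smallest possible p is 0.1.

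Among 7966 tested genes with a mean of 5 FPKM or more, those nearest to Mfn1 in their centred log2 profile over the 6 libraries were Tpp1, Wdr91 and Galc, at Euclidean distances of 0.165, 0.175 and 0.186 (median over all candidates 1.05). As for Mfn1, bleomycin replicate 3 was the highest library for these genes, with Tpp1 at 24.5, 26.8 and 37.4 FPKM with bleomycin and at 30.4, 30.8 and 33.4 FPKM with PBS. Those nearest to Mfn2 were Wdr34, Tekt2 and Naa10, at distances of 0.165, 0.233 and 0.249 (median 1.20). Wdr34 measured 8.13, 8.91 and 5.29 FPKM with bleomycin and 9.96, 5.24 and 5.85 FPKM with PBS, the same pattern of high and low libraries as Mfn2. All these genes were picked for their closeness over the same 6 libraries, so the shared patterns follow from that choice.

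Opa1 (ENSMUSG00000038084.16, chr16:29579334-29654884, plus strand) did not pass as a gene. It measured 8.28, 10.7 and 7.18 FPKM with bleomycin and 8.60, 9.21 and 12.2 FPKM with PBS, with overlapping groups and a log2 difference of -0.18 (95% interval -0.69 to 0.33, limma adjusted p = 0.583). Its 3 listed transcripts differ in 2 alternative exons, both of which add whole codons. Opa1-003 holds an exon of 54 bases (18 codons, chr16:29588823-29588876) that Opa1-001 skips. Opa1-008 holds one of 111 bases (37 codons, chr16:29597586-29597696), an alternative exon known in mammals to carry a Yme1l1 cut site. Whether the 54-base exon carries a cut site too was not examined here. The sequences show what the transcripts gain or lose there. They run 5′ to 3′ on the plus strand of GRCm38 (the mm10 assembly) and come from the GENCODE M21 transcripts. Capitals mark the alternative exon, lower case the 15 bases on either side, and each joined sequence is the same place in Opa1-001.
Opa1-003 with the 54-base exon: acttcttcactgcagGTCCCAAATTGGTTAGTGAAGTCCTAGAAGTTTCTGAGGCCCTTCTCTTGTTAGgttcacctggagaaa
Opa1-001 at that place: acttcttcactgcaggttcacctggagaaa
Opa1-008 with the 111-base exon: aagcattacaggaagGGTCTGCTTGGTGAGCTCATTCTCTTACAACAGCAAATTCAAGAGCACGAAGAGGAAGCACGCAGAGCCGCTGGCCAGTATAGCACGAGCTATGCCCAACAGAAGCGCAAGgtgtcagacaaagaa
Opa1-001 at that place: aagcattacaggaaggtgtcagacaaagaa

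The share of Opa1-001, the transcript without either exon, was lower in each bleomycin library than in any PBS library. Its level did not overlap between the groups either, as for 37.7% of all tested transcripts in either direction. How often shares do not overlap over all genes is not given here. Opa1-001 measured 2.00, 5.17 and 3.60 FPKM with bleomycin and 6.27, 6.47 and 7.36 FPKM with PBS, and made up 40.9 ± 14.5% of the gene's FPKM with bleomycin and 67.8 ± 6.66% with PBS (SD, n = 3 each). Opa1-003 measured 4.17, 4.82 and 3.05 FPKM with bleomycin and 1.64, 1.10 and 3.22 FPKM with PBS. Its level overlapped between the groups, but its share did not, at 45.9 ± 4.04% with bleomycin and 19.1 ± 7.21% with PBS. Opa1-008 held 13.3 ± 10.6% with bleomycin and 13.1 ± 4.96% with PBS.

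These differences in transcript use did not pass the test. Against the other tested transcripts of the gene, Opa1-003 differed by a log2 value of 1.28 ± 0.40 (SE) and Opa1-001 by -1.12 ± 0.40, with limma diffSplice adjusted p of 0.116 and 0.177. Unadjusted, the p values were 0.00656 and 0.0146. Of 15 transcripts tested in this way, from 5 of the 10 genes, none passed at the adjusted threshold and 3 had an unadjusted p under 0.05, and no other tool was run. Of all 9109 transcripts tested for use 3.6% passed. Opa1-001 is annotated with 6230 spliced bases, Opa1-003 with 3230, and the end of Opa1-008 is incomplete in the annotation, so the transcripts differ in more than these exons.

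**Figure D2:**
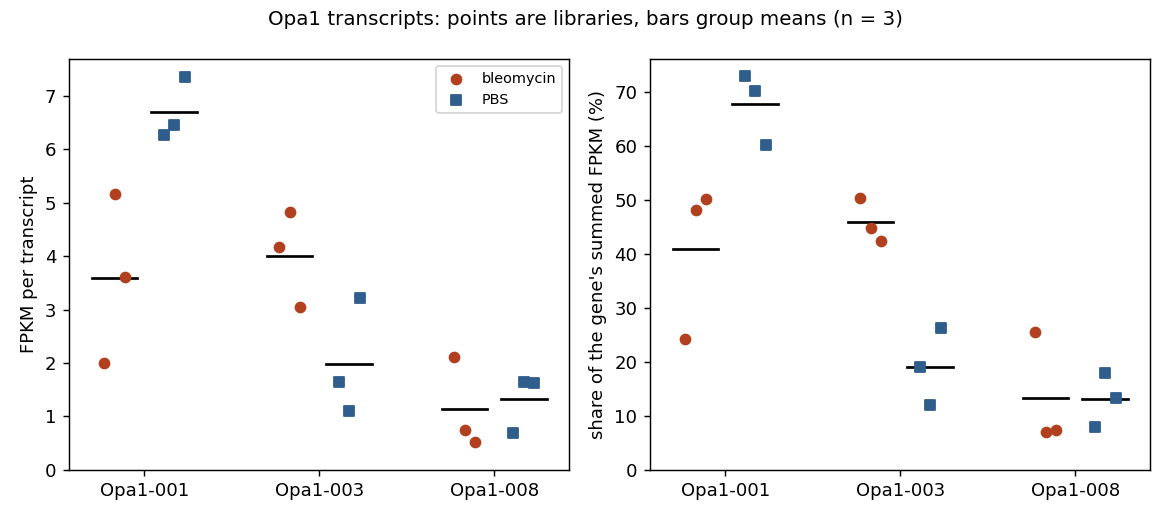
Level of the 3 listed Opa1 transcripts in FPKM (left panel) and each transcript's share of the gene's summed FPKM in percent (right panel), with bleomycin libraries as circles left of PBS libraries as squares and lines for group means (n = 3 each). The share of Opa1-003 was 42.4% to 50.3% with bleomycin and 11.9% to 26.3% with PBS.

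Of the proteases that cut Opa1, Oma1 was lower in every bleomycin library, as were 16.4% of all tested genes, and Yme1l1 was not. Oma1 (ENSMUSG00000035069.3, chr4:103313812-103366443, plus strand), the stress-activated protease, measured 8.14, 9.99 and 5.71 FPKM with bleomycin and 17.0, 13.0 and 11.3 FPKM with PBS. The groups did not overlap, yet the log2 difference of -0.73 ± 0.25 (SE, 95% interval -1.32 to -0.15) missed the threshold with a limma adjusted p of 0.0770, or an unadjusted p of 0.0216. It passed after scaling to equal medians (-0.90, limma adjusted p = 0.0362) and with quantile normalization (-0.89, limma adjusted p = 0.0418), 2 of the 17 alternatives, over which the adjusted p ran from 0.0362 to 0.180.

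Yme1l1 (ENSMUSG00000026775.9, chr2:23156369-23199260, plus strand), the constitutive protease, measured 31.0, 27.6 and 19.2 FPKM with bleomycin and 21.5, 26.2 and 30.4 FPKM with PBS. Its means were 26.0 ± 6.08 FPKM with bleomycin and 26.1 ± 4.44 FPKM with PBS, a log2 difference of -0.02 with a 95% interval of -0.56 to 0.53 (limma adjusted p = 0.963). The ratio of Oma1 to Yme1l1, computed after these values were seen, was 0.262, 0.362 and 0.297 with bleomycin and 0.788, 0.497 and 0.371 with PBS. Every bleomycin library lay below every PBS library in this ratio, by a small gap between bleomycin replicate 2 and PBS replicate 3.

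None of the 3 division genes passed the test. Dnm1l (ENSMUSG00000022789.14, chr16:16312235-16359030, minus strand) measured 17.9, 17.0 and 17.1 FPKM with bleomycin and 13.1, 15.2 and 16.8 FPKM with PBS. The groups did not overlap, but only just, and the log2 difference was 0.20 with a 95% interval of -0.16 to 0.56 (limma adjusted p = 0.385). Fis1 (ENSMUSG00000019054.13, chr5:136953275-136966234, plus strand) measured 97.6, 47.4 and 83.9 FPKM with bleomycin and 107, 54.8 and 80.9 FPKM with PBS. The spread of this gene within each group was wide, with SDs of 25.9 FPKM with bleomycin and 26.2 FPKM with PBS, and the difference of -0.09 had a 95% interval of -0.93 to 0.74 (limma adjusted p = 0.874).

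Mff (ENSMUSG00000026150.14, chr1:82724890-82752394, plus strand) measured 25.0, 27.2 and 26.2 FPKM with bleomycin and 28.3, 18.1 and 21.0 FPKM with PBS, with overlapping groups and a log2 difference of 0.23 (95% interval -0.23 to 0.69, limma adjusted p = 0.426). Of its 8 listed transcripts, Mff-004 was the most abundant in 5 of 6 libraries. This transcript skips an exon of 60 bases (20 codons, chr1:82747083-82747142) that Mff-002 holds. Mff-004 measured 7.06, 10.1 and 12.2 FPKM with bleomycin and 7.67, 3.13 and 6.07 FPKM with PBS, or 37.3 ± 9.18% of the gene's FPKM with bleomycin and 24.4 ± 6.24% with PBS. The groups overlapped, and its use differed by a log2 value of 0.84 ± 0.35 (SE) without passing (limma diffSplice adjusted p = 0.238). Mff-009 was listed at 0 in 5 of the 6 libraries.

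Of the mitophagy genes Bnip3 passed the test and Pink1 did not. Both were lower in every bleomycin library than in any PBS library, as were 16.4% of all tested genes. Pink1 (ENSMUSG00000028756.12, chr4:138313412-138326307, minus strand), with 1 listed transcript, measured 32.4, 34.1 and 29.5 FPKM with bleomycin and 47.2, 40.4 and 37.1 FPKM with PBS. The groups did not overlap, and the log2 difference was -0.36 ± 0.15 (SE, 95% interval -0.73 to 0.01, limma adjusted p = 0.141). Of the settings tried it passed only with equal library medians (-0.53, limma adjusted p = 0.0449), and over all 17 alternatives the adjusted p ran from 0.0449 to 0.272.

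Bnip3 (ENSMUSG00000078566.8, chr7:138890836-138909506, minus strand) measured 9.66, 11.8 and 10.01 FPKM with bleomycin and 19.8, 18.8 and 18.3 FPKM with PBS. All 3 bleomycin libraries lay well below all 3 PBS libraries, and the spread within each group was small. The means were 10.5 ± 1.13 FPKM with bleomycin and 18.9 ± 0.751 FPKM with PBS (SD, n = 3 each), and Bnip3 fell by 0.80 ± 0.15 (SE) on the log2 scale (95% interval -1.15 to -0.45, limma adjusted p = 0.0111). The fitted ratio of FPKM + 1 was 0.57, with an interval of 0.450 to 0.732. The call held in all 17 alternatives, with adjusted p from 0.00504 to 0.0448, and without any 1 library the difference was -0.88 to -0.75. In the same bleomycin libraries 9 of 10 AT2 markers, 4 of 8 fibroblast and smooth muscle markers and 1 of 8 AT1 markers were lower too. Higher were 9 of 10 leukocyte markers (summing to 692 to 1025 FPKM with bleomycin and 22.8 to 37.1 FPKM with PBS) and all 8 endothelial markers. So were 2 of 5 erythroid and 2 of 5 ciliated cell markers. The part of these marker differences in the Bnip3 value was not tested.

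Both listed Bnip3 transcripts were lower in every bleomycin library. The groups did not overlap, in either direction, for 37.7% of all tested transcripts. Bnip3-001 measured 9.04, 10.9 and 8.26 FPKM with bleomycin and 17.3, 16.2 and 15.5 FPKM with PBS, and fell by 0.75 on the log2 scale (limma adjusted p = 0.0352). Its call was lost without any 1 library (adjusted p 0.0566 to 0.0950). Bnip3-004 measured 0.612, 0.921 and 1.75 FPKM with bleomycin and 2.49, 2.58 and 2.76 FPKM with PBS, a difference of -0.82 that missed the threshold (limma adjusted p = 0.0796) but passed without bleomycin replicate 3 (adjusted p = 0.0390). Bnip3-001 was the 1 transcript called of 20 tested from the 10 genes, where 14.8% of all tested transcripts were called and 3.97% were called lower. The share of Bnip3-001 in the gene was 89.5 ± 6.04% with bleomycin and 86.2 ± 1.26% with PBS.

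Bnip3 is a well-known target of the hypoxia-inducible factors in mouse and human cells. The 250 bases before its start are shown because it was the gene that passed and because its promoter stands out among the 10 for one motif. They are the minus strand of GRCm38.p6, chr7:138909507-138909756, written 5′ to 3′ from RefSeq, and capitals mark each ACGTG or GCGTG on either strand, the core letters of the hypoxia response element.
Bnip3 promoter: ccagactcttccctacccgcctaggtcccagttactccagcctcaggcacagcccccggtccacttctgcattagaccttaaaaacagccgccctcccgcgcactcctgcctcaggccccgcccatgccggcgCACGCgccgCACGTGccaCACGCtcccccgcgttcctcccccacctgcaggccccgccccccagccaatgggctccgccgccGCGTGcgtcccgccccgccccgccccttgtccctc
The window holds 5 matches, 2 of which overlap in the palindrome in its middle. At least 1 match is present in 38.6% of 32851 RefSeq promoters of this length, and 5 or more in 1.01%. Pink1 has 1 match, Mfn2 has 1 or 2 in its 3 listed promoters, Dnm1l has 1 in one of its promoters, and the other 6 genes have none. The promoter was picked for this count, so the share of 1.01% is no test of it. A match describes these letters only and shows no binding.

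**Figure D3:**
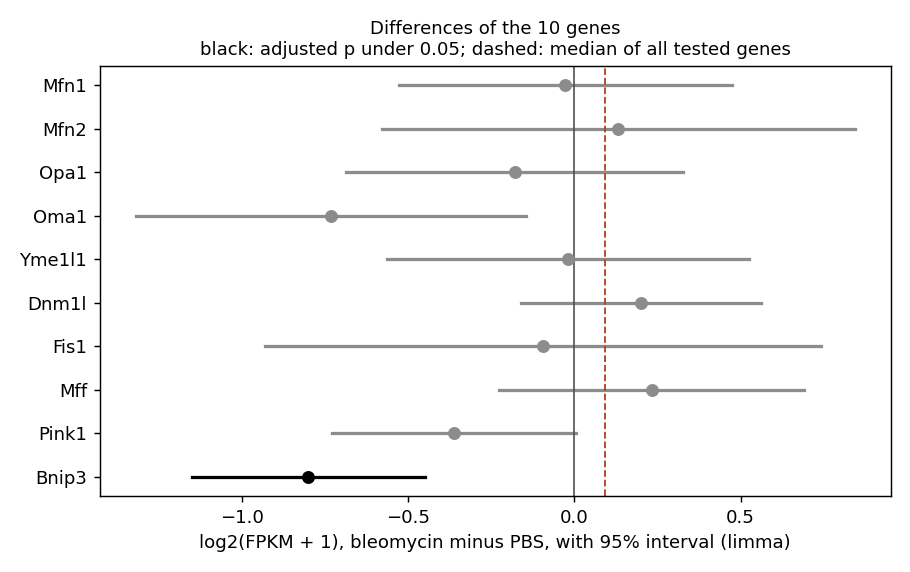
Log2 difference of log2(FPKM + 1), bleomycin minus PBS, for each of the 10 genes, with 95% limma intervals as bars, genes with an adjusted p under 0.05 in black and the median of all tested genes (0.09) as a dashed line. Bnip3 at -0.80 is the gene in black, and the interval of Oma1 (-1.32 to -0.15) also lies below 0.

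By mean level per transcript length (FPKM), Fis1 was the highest of the 10 in both groups, at 76.3 ± 25.9 FPKM with bleomycin and 80.9 ± 26.2 FPKM with PBS, and Pink1 was next, at 32.0 ± 2.29 FPKM with bleomycin and 41.6 ± 5.11 FPKM with PBS (SD, n = 3 each). With bleomycin the order went on with Mff, Yme1l1, Dnm1l, Mfn2, Bnip3, Mfn1, Opa1 and Oma1. In it Mff and Yme1l1 overlapped, and so did each neighbouring pair from Mfn2 down to Oma1, while Fis1 and Pink1, Pink1 and Mff, Yme1l1 and Dnm1l, and Dnm1l and Mfn2 did not. With PBS it went on with Yme1l1, Mff, Bnip3, Dnm1l, Oma1, Mfn2, Opa1 and Mfn1, where Fis1 and Pink1, Pink1 and Yme1l1, and Bnip3 and Dnm1l did not overlap and all other neighbours did. Bnip3 was thus 7th with bleomycin and 5th with PBS, and Oma1 was 10th with bleomycin and 7th with PBS.

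The wider machinery was described with 9 lists of other genes, none of which holds any of the 10. Among fusion and cristae genes 19 of 21 listed were tested and none passed in limma (2 at an unadjusted p under 0.05), with a median log2 difference of 0.18. With equal library medians, or with quantile normalization, 1 of these fell (Fam73b, named after its values were seen, with adjusted p of 0.0476 and 0.0409 there and 0.0910 unscaled), and the median of the list was 0.01 and 0.02. Among fission factors and regulators 18 of 19 were tested, 2 rose, 2 fell and 14 did not pass, with a median of -0.29, beside 15.2% higher and 7.34% lower among all tested genes. Dnm2, a dynamin, rose to 46.8, 48.5 and 44.4 FPKM with bleomycin, against 30.8, 28.2 and 26.1 FPKM with PBS (log2 difference 0.70, limma adjusted p = 0.0148). Inf2, an actin-assembling formin that acts at sites of division, rose to 6.32, 7.87 and 8.71 FPKM with bleomycin, against 4.35, 2.82 and 4.20 FPKM with PBS (0.86, limma adjusted p = 0.0313).

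The members of that list that fell were Mtfr1l and Akap1. Mtfr1l, a fission regulator-like gene, measured 27.9, 32.8 and 23.0 FPKM with bleomycin and 51.5, 45.8 and 46.1 FPKM with PBS, a fall of 0.77 on the log2 scale (limma adjusted p = 0.0231). Akap1, which anchors protein kinase A at the outer membrane, measured 4.71, 6.18 and 5.68 FPKM with bleomycin and 9.39, 9.91 and 8.13 FPKM with PBS, a fall of 0.64 (limma adjusted p = 0.0404). None of the 4 calls held with every single library left out, and where a gene's most abundant transcript stood for the gene, Dnm2 (0.50, limma adjusted p = 0.154) and Akap1 (limma adjusted p = 0.0540) were not called. Dnm2 no longer passed when PBS replicate 3 or bleomycin replicate 2 was left out (adjusted p up to 0.0594), nor did Mtfr1l without any one PBS library or bleomycin replicate 1 (up to 0.0666), Inf2 in 5 of the 6 fits, all but that lacking bleomycin replicate 1 (up to 0.0945), or Akap1 in any of the 6 (0.0682 to 0.114).

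Of 27 mitophagy receptors and Pink1 partners, all tested, 3 fell, 3 rose and 21 did not pass, with a median of 0.11. Of all tested genes 22.5% passed, 15.2% higher and 7.34% lower, so the calls in either direction are near the share among all genes. Optn, the autophagy receptor optineurin, measured 5.002, 5.46 and 5.57 FPKM with bleomycin and 11.2, 15.1 and 11.6 FPKM with PBS, a fall of 1.09 on the log2 scale (limma adjusted p = 0.00629). Its groups lay far apart, and the call held without any 1 library (adjusted p up to 0.0255). Usp8, a deubiquitinase that acts on parkin, measured 23.0, 23.4 and 21.6 FPKM with bleomycin and 35.6, 47.7 and 40.2 FPKM with PBS, a fall of 0.83 (limma adjusted p = 0.0132). Its call held without any 1 library, but not where a gene's most abundant transcript stood for the gene (-0.39, limma adjusted p = 0.469).

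The mitophagy genes that rose were Usp15, Tomm20 and Tbk1. Usp15, a deubiquitinase that opposes parkin, measured 21.0, 18.2 and 18.1 FPKM with bleomycin and 9.66, 13.2 and 11.9 FPKM with PBS (log2 difference 0.68, limma adjusted p = 0.0319), and it stayed past the threshold in only 1 of 6 fits with a library left out, the one lacking PBS replicate 2 (adjusted p up to 0.0949 in the others). Tomm20, a receptor of the outer membrane import complex, measured 23.8, 21.0 and 22.4 FPKM with bleomycin and 14.7, 15.1 and 15.7 FPKM with PBS (0.53, limma adjusted p = 0.0346), a call lost without any 1 library (0.0629 to 0.0959). The kinase gene Tbk1 (0.50, limma adjusted p = 0.0386) and Nipsnap1, which fell (-0.56, limma adjusted p = 0.0488), complete the calls and are named here after their values were seen. Both calls were lost in all 6 fits with a library left out (adjusted p of 0.0662 to 0.113 for Tbk1 and 0.0618 to 0.135 for Nipsnap1). With equal library medians, or with quantile normalization, 3 of the 27 fell and none rose, and the median of the list turned to -0.06 and -0.08.

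Bnip3l, the paralogue of Bnip3, is given here after its values were seen. It measured 16.7, 49.0 and 13.06 FPKM with bleomycin and 7.73, 9.25 and 13.05 FPKM with PBS, a log2 difference of 1.10 that did not pass (limma adjusted p = 0.152). Every bleomycin library was above every PBS library, but bleomycin replicate 3 (13.06 FPKM) barely above PBS replicate 3 (13.05 FPKM), and bleomycin replicate 2 stood far above the rest. Bnip3l is known for clearing mitochondria from maturing red cells, and the erythroid marker sum was 637 to 1185 FPKM with bleomycin and 19.3 to 431 FPKM with PBS. The high PBS sum was that of replicate 2, with Hba-a1 at 4.61, 109 and 5.77 FPKM in PBS replicates 1, 2 and 3. Bnip3l was highest in PBS replicate 3 among the PBS libraries. The part of erythroid cells in the Bnip3l value was not tested. Parkin, listed as Park2, was low, at 0.423, 0.965 and 1.04 FPKM with bleomycin and 1.04, 1.32 and 0.800 FPKM with PBS (limma adjusted p = 0.546).

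**Figure D4:**
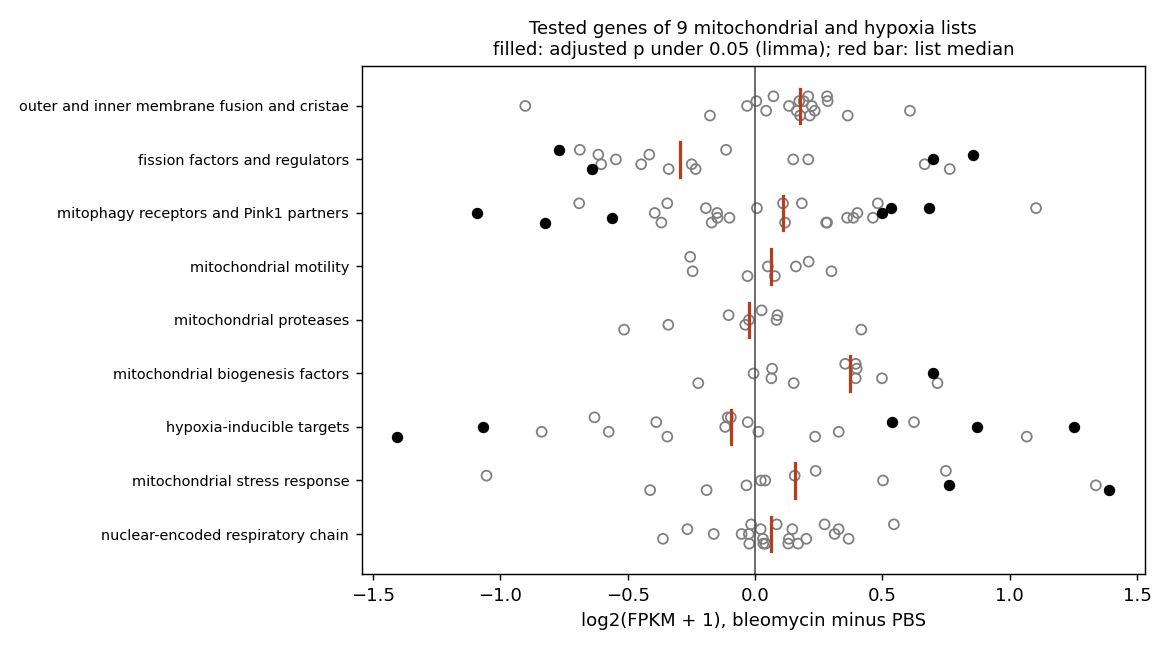
Log2 difference of log2(FPKM + 1), bleomycin minus PBS, for each tested gene of 9 lists that leave out the 10 genes, with filled points for an adjusted p under 0.05 (limma) and a red bar for each list's median. Calls fell on both sides of 0 in the fission list (2 higher, 2 lower), the mitophagy list (3 higher, 3 lower) and the list of hypoxia-inducible targets (3 higher, 2 lower). Among all tested genes 15.2% were called higher and 7.34% lower.

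Of 20 listed hypoxia-inducible targets 19 were tested, 3 rose, 2 fell and 14 did not pass, with a median of -0.10. Among all tested genes 15.2% passed as higher and 7.34% as lower, so these counts are near the share among all genes. Slc2a1, the glucose transporter GLUT1, rose to 19.1, 18.3 and 16.0 FPKM with bleomycin, against 10.6, 9.50 and 7.86 FPKM with PBS (0.87, limma adjusted p = 0.0137), a call lost without bleomycin replicate 2 (0.0520). Kdm3a, a histone demethylase, differed by 0.54 (limma adjusted p = 0.0445), a call lost without any 1 library and in 6 other alternatives, and Ankrd37, named after its values were seen, by 1.25 (limma adjusted p = 0.0493), a call lost in 5 of 6 fits with a library left out, all but the one lacking bleomycin replicate 3 (up to 0.136). P4ha2, a collagen prolyl hydroxylase, measured 5.69, 7.31 and 5.73 FPKM with bleomycin and 14.4, 18.4 and 10.6 FPKM with PBS, a fall of 1.07 (limma adjusted p = 0.0200) that 4 of 6 fits with a library left out did not call (up to 0.0653), those lacking PBS replicate 1 or 2, or bleomycin replicate 1 or 3. Adm, of the vasodilator peptide adrenomedullin, fell by 1.40 (limma adjusted p = 0.0433), a call lost in 5 of those 6 fits, all but the one lacking bleomycin replicate 3 (up to 0.117). With equal library medians, or with quantile normalization, 1 of the 19 rose and 2 fell.

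Calls in the remaining mitochondrial lists are given beside 22.5% of all tested genes (15.2% higher and 7.34% lower). None of 22 nuclear-encoded respiratory chain genes passed in limma (1 at an unadjusted p under 0.05), with a median of 0.06, and their summed level was 1444 to 1659 FPKM with bleomycin and 1414 to 1546 FPKM with PBS. None of 8 motility genes passed (median 0.06), nor any of 9 tested proteases of 11 listed (median -0.02), and in either list 0 had an unadjusted p under 0.05. Of 12 biogenesis factors Ppargc1b, a transcriptional coactivator, was the one that rose, and 11 did not pass (median 0.37). Ppargc1b was low throughout, at no more than 1.49 FPKM with bleomycin and no more than 0.450 FPKM with PBS. It met the filter of 1 FPKM in at least 3 libraries only through the bleomycin group, so its call lies close to the filter. Of 14 listed genes of the mitochondrial stress response 13 were tested (4 at an unadjusted p under 0.05 in limma), with a median of 0.16. None of these 13 fell and 2 rose, near the share called higher among all genes. These were Psat1, of serine synthesis, with 3.47, 3.73 and 8.84 FPKM with bleomycin and 0.778, 1.59 and 1.52 FPKM with PBS (1.39, limma adjusted p = 0.0333), and the asparagine synthetase gene Asns, which differed by 0.76 (limma adjusted p = 0.0378). Both calls were lost in most fits without 1 library, for Psat1 in 4 of 6, those lacking bleomycin replicate 2 or any PBS library (adjusted p up to 0.0971), and for Asns in 5 of 6, all but that lacking PBS replicate 1 (up to 0.102). Ppargc1b lost its call in the same 4 fits as Psat1 (up to 0.0679). The transcription factor gene Atf5, named after its values were seen, measured 20.1, 37.8 and 51.0 FPKM with bleomycin and 85.5, 61.4 and 69.5 FPKM with PBS, without overlap, a difference of -1.05 that missed the threshold (limma adjusted p = 0.0704). It passed as lower with equal library medians (adjusted p = 0.0405), with library weights (0.0477) and without bleomycin replicate 3 (0.0352), and over all alternatives its adjusted p ran from 0.0352 to 0.173. With equal library medians neither Psat1 nor Asns passed (adjusted p of 0.0517 and 0.0685), the median of the list was -0.01, and with quantile normalization Ppargc1b did not pass either (0.19, limma adjusted p = 0.407).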

How the data were processed

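The authors deposited 1 table per library with an FPKM value for each of 24647 protein-coding transcripts, per the file headers. HISAT2, StringTie, FastQC 0.10.1 and the build mm10 are named per the submitters' processing notes, and the KAPA stranded kit per the labels' protocols. The sources used here do not give the annotation, the settings or the cell isolation. The FPKM of a library sum to 253146 to 300697, and depth is unknown. Groups and replicate numbers come from the sample titles.

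Transcript FPKM were summed by gene ID. Genes and transcripts that reached 1 FPKM in at least 3 of 6 libraries were tested on log2(FPKM + 1), which understates changes of low genes, with limma 3.58.1 (R 4.3.3, eBayes with trend after lmFit, no covariate, Benjamini-Hochberg over all tested features, threshold 0.05). Transcript use was tested with limma diffSplice, which treats the transcripts of a gene as independent although they share reads. The code was tested on simulated data. The smallest exact permutation p with 3 against 3 is 0.1, so adjusted p values rest on limma's pooled spread. Transcript structures and sequences are from GENCODE M21 (23 of 26 transcripts matched by ID and coordinates, the 3 of Dnm1l not), and promoters from RefSeq on GRCm38.p6 (all 10 genes matched).

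Same-numbered libraries of the 2 groups did not deviate together (r of -0.004, 0.017 and 0.039 across genes), so the numbers were not taken as pairs. The 10 genes, the lists and the rule for named genes were chosen with earlier results of these data known. The rule takes the 10 genes, from each list up to 4 genes of smallest adjusted p, and the 3 nearest profiles of each mitofusin. Genes of a list that did not pass are given as counts. Other settings tried were pseudocounts of 0.1 and 5, no filter or one of 5 FPKM, scaling of libraries (equal sums, equal medians, quantiles), the most abundant transcript in place of the sum, eBayes without trend, weights per library, the replicate block, and each library left out.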

Additional observations from a re-analysis of the deposited data

How the results depend on the processing

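The number of the 10 genes called was 1, and it was 3 with equal medians (Oma1, Pink1 and Bnip3), 2 with quantile normalization and 1 in each other alternative. Bnip3 was called in all. Over all genes 2776 were called, and 1782 to 2630 without 1 library. Lower calls numbered 905, against 1435 with equal medians, 1441 with quantile normalization, 563 with the replicate block and 457 to 873 without 1 library. Transcript calls numbered 2624, against 1653 with the 5 FPKM filter, 1618 with the replicate block and 1620 to 2316 without 1 library. Calls among transcripts of the 10 genes numbered 1, against 2 with equal medians, 0 with the replicate block (Bnip3-001 adjusted p = 0.0939) and 0 to 1 without 1 library. Transcript use calls numbered 328, against 116 with the 5 FPKM filter, 207 with the replicate block and 207 to 327 without 1 library.

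Signs of differences that did not pass turned in some settings. With equal sums Mfn1 was 0.0022 and Yme1l1 was 0.0122. Mfn2 was -0.0389 under equal medians and -0.0133 under quantile normalization. With a library left out Mfn1 ran from -0.22 to 0.0694, Mfn2 from -0.0224 to 0.38, Yme1l1 from -0.16 to 0.18, Fis1 from -0.35 to 0.21 and the log2 ratio of Mfn1 to Mfn2 from -0.65 to 0.0944. The ratio was -0.17 with the replicate block. The block left Bnip3 called (adjusted p = 0.0448). The cause of these shifts was not tested.

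With 3 libraries a group the intervals of the 10 genes are wide, and unknown depth leaves the counting error of low transcripts unmeasured.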
